A study of Mus musculus with 15 samples.

Results

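The Zfp genes encode mouse zinc finger proteins, and their transcripts were followed here through lists of SAM68 binding sites. Members were all genes whose symbol is Zfp and a number, with Zfp42 left out, that held a site on any of 3 days. By this rule 175 of 7949 gene IDs in the lists were members, 174 of them protein-coding and 1, Zfp783, a transcribed pseudogene. SAM68 (Khdrbs1), a STAR family protein, binds RNA rich in U and A and takes part in splicing and RNA processing. It was crosslinked to RNA with ultraviolet light and recovered with an antibody from the mouse embryonic stem cell line E14, by iCLIP2, a method that reads the crosslinked nucleotide from the place where reverse transcription stops. Each of the 3 days had 5 libraries, 15 in all, and the authors gave 1 list of sites per day. Day 0 cells grew without feeders on gelatin, with LIF and inhibitors of GSK and MEK. Day 3 and day 10 samples were embryoid bodies in serum, dissociated into single cells before crosslinking. The day 3 bodies formed in hanging drops and the day 10 bodies in spheroid microplates, so effects of time and of the way the bodies were grown cannot be told apart. No genotype or transgene is named in the labels, and nothing in them says that the 5 libraries of a day came from separate cultures.

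Most Zfp proteins carry arrays of C2H2 zinc fingers, small folds that hold a zinc ion and each contact a few bases of DNA. A large subset also carries a KRAB domain, which recruits TRIM28 (KAP1) and the histone methyltransferase SETDB1 and so represses chromatin at retroelements and imprinted regions. KRAB zinc finger genes multiply by local duplication and lie in clusters of similar copies, one of them on distal chromosome 4, and early embryonic cells are a setting in which their silencing of retroelements is well known. Other Zfp proteins have no KRAB domain and act in development, chromatin or RNA metabolism, so the name alone does not define 1 function.

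The lists held 29740 sites on day 0, 28266 on day 3 and 74287 on day 10, each site 5 nt wide, with nothing recorded per library. How far the libraries of a day differ is therefore unknown and no test between days was possible. The share of a gene is its number of sites per 10000 sites of that day's list. A share is called larger or smaller where the exact 95% binomial interval of the ratio of shares excludes 1, and open otherwise. These intervals cover counting error only, sites within a gene are not independent, and the calls were not adjusted for the number of genes. RNA abundance was not used here. In a mixed culture, fewer cells of a type and less RNA per cell cannot be told apart. The marker genes followed the labels: 4 stem cell markers (Esrrb, Nr5a2, Tfcp2l1, Nanog) held 130 sites on day 0, 6 on day 3 and 1 on day 10. The 4 cardiac and mesodermal markers (Slc8a1, Gata4, Zfpm2, Tbx20) held 0, 4 and 740 sites, and the 4 endodermal markers (Col4a1, Col4a2, Lamb1, Dab2) 0, 9 and 288. The part of this change of cell types in the results below was not tested.

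A group of neighbouring Zfp genes on chromosome 4 recurs in the results, and its promoters are therefore printed first. RefSeq (GRCm38.p6) gave a promoter for 144 of the 175 members and for 9 of the 11 members of this group. Over the 250 bases before the start, 7 of these 9 were alike, with 70.8% to 96.0% identity in 21 pairs and a median of 85.2%. Zfp600 and Zfp979 were the closest pair. Zfp993 and Zfp933 were not alike, with 45.2% to 55.6% identity to the others. Set against 135 member promoters elsewhere, the 7 alike promoters had a median identity of 50.8% and at most 59.6%. The 150 bases before the start are shown for 4 alike promoters and, for contrast, for Zfp933. Capitals mark AAGCTAATTAA, the longest run shared by the 7, which was picked from these sequences.
Zfp600 (chr4:146156677-146156826, plus strand): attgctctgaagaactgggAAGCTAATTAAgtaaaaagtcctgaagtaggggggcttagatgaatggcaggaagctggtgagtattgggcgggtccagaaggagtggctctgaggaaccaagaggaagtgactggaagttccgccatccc
Zfp979 (chr4:147642509-147642658, minus strand): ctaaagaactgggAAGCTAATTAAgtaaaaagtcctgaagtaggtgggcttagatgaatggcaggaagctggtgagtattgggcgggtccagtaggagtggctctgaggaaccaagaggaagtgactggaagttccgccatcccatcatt
Zfp985 (chr4:147553127-147553276, plus strand): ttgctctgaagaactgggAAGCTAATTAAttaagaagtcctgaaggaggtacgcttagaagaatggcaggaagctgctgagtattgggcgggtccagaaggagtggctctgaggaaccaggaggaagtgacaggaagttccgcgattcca
Zfp984 (chr4:147809789-147809938, minus strand): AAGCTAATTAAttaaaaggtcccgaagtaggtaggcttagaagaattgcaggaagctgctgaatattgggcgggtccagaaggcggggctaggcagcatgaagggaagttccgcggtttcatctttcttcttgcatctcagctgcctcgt
Zfp933 (chr4:147848419-147848568, minus strand): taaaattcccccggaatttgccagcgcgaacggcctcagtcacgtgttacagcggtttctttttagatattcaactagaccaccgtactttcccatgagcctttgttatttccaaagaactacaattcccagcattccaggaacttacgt
Searched on both strands in the 150 bases before the start, AAGCTAATTAA was found in 11 of 32851 promoters (0.0335%), all on chromosome 4. Of these, 9 belong to Zfp genes, 7 with sites and 2 without a named site (Zfp534 and Zfp988), and 2 to genes with other names in or near the same group, Rex2 and Gm13212. None of the 170 tabulated promoters of members outside the group held it. A match is a description of the letters and not a factor's site.

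**Figure D1:**
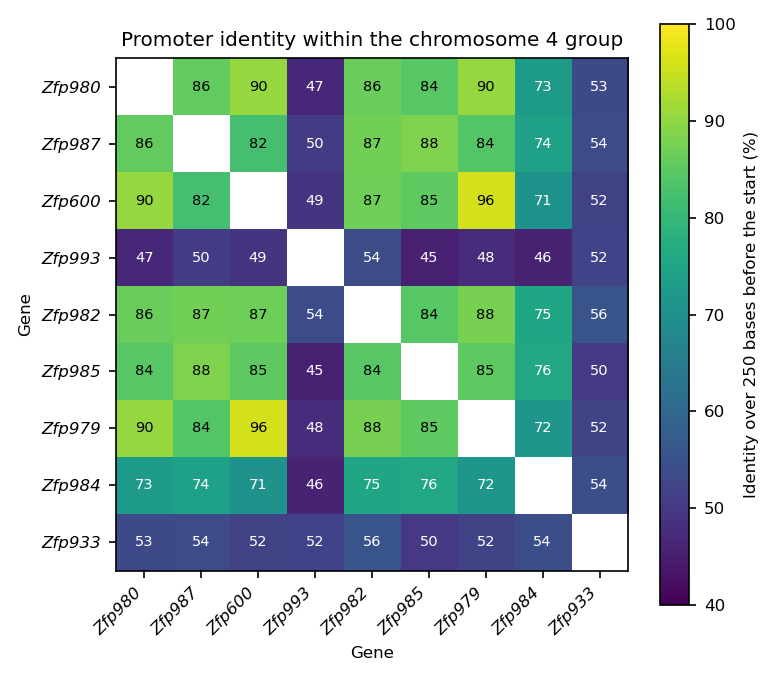
Identity in percent over the 250 bases before the RefSeq start, for each pair of the 9 chromosome 4 genes with a tabulated promoter, in their order along the chromosome. The 7 alike promoters share 70.8% to 96.0% and Zfp993 and Zfp933 share 45.2% to 55.6% with any other.

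The RNA sequence at SAM68 sites could be shown for 2 member sites, the only ones that lay inside a tabulated promoter window. They are printed as DNA on the strand of the RNA, with the 5 nt of the site in capitals.
Zfp57, day 0 (chr17:37003672-37003696, plus strand): ttttttttttTTTCCaacggaagaa
Zfp91, day 10 (chr19:12765825-12765849, minus strand): caatactataTTTTGccaggataaa
The Zfp91 site lay beyond the end of the RefSeq span of Zfp91 (chr19:12766939-12796123, minus strand), and so not at its promoter. Both sites had T at their centre, the first at the end of a run of T. Over all genes, 394 sites lay in such windows, and T stood at the centre of 231 of them (58.6%, exact 95% interval 53.6% to 63.5%). All promoters of the table held 23.0% T, but they are not the set of windows with sites. What the T at the centre depends on was not tested. The other member sites could not be read, since no genome was used here.

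The Zfp genes held 823 sites on day 0, 572 on day 3 and 1180 on day 10. Scaled by list length, these are 277, 202 and 159 sites per 10000, so that the share of the Zfp transcripts was smaller on each later day. The day 3 share was 0.731 times the day 0 share (95% interval 0.656 to 0.815), the day 10 share 0.574 times (0.525 to 0.628), and the day 10 share 0.785 times the day 3 share (0.710 to 0.869). With at most 10 sites counted per gene and day, the ratio of day 3 to day 0 was 0.931 (0.817 to 1.06) and open, so this fall rested on genes with many sites. Without the 11 genes of the chromosome 4 group the ratios were 0.824, 0.729 and 0.885. A site was listed for 109 Zfp genes on day 0, 113 on day 3 and 137 on day 10, the day of the longest list.

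Other zinc finger families did not share 1 course. The Zbtb genes, whose proteins join zinc fingers to a BTB domain, held 72, 46 and 194 sites in 15 genes, and the day 10 ratio to day 0 was 1.08 (0.819 to 1.43). The Zscan and Zkscan genes held 8, 14 and 34 sites, with an open ratio of 1.70 (0.773 to 4.25). The Klf genes, Krüppel-like factors that include regulators of the stem cell state, held 57, 81 and 56 sites, with a ratio of 0.393 (0.267 to 0.579). The intervals of Zbtb and of the Zfp genes do not overlap, and that of Klf overlaps with that of the Zfp genes.

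Site numbers were spread unevenly over the members. Of the 175 genes, 33 held 1 site over the 3 days, 63 held at least 10 and 37 at least 20, with a median of 5 sites per gene against 6 over the other named protein-coding genes. The top 6 genes held 25.9% of the 2575 member sites and the top 20 held 54.8%. Sites on all 3 days were listed for 66 genes, on day 0 alone for 16, on day 3 alone for 10 and on day 10 alone for 31. These counts were not set against those of all gene IDs, and the day 10 list was the longest. In the whole lists, 5056 IDs had a site on day 0, 5034 on day 3 and 6345 on day 10.

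**Figure D2:**
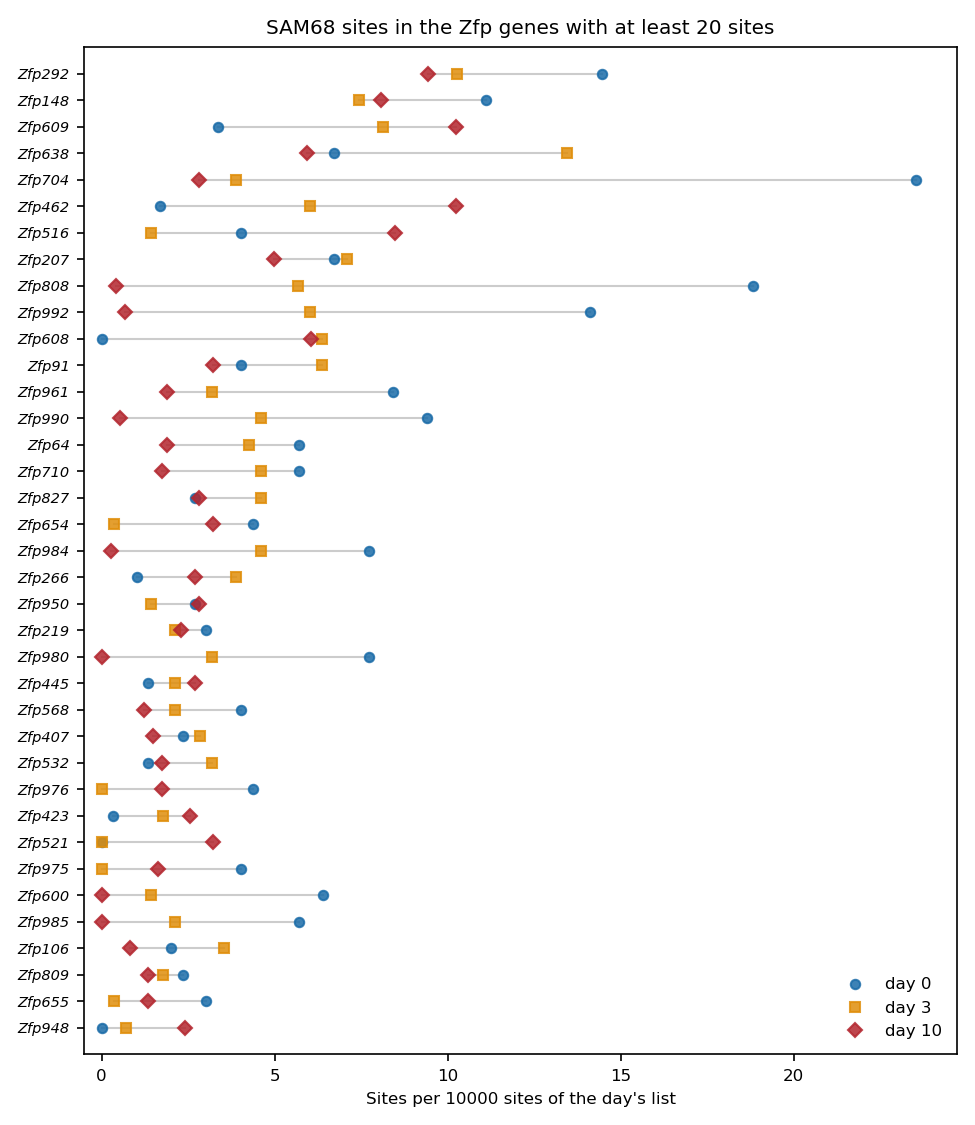
Sites per 10000 sites of the day's list (horizontal axis) for the 37 Zfp genes with at least 20 sites, ordered by total sites, with 1 point per day and a grey line over the range. The day 0 points of Zfp704, Zfp808 and Zfp992 lie far to the right of their day 10 points, and Zfp609, Zfp462 and Zfp608 lie the other way round.

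Compared with day 0, the day 10 list held a smaller share in 28 of 165 Zfp genes with a site on either day and a larger share in 7, while 130 were open. Over all gene IDs, 10.5% were called smaller and 7.33% larger in this comparison, against 17.0% and 4.24% of the members. Among the 53 members with at least 10 sites over both days, 20 were smaller (37.7%, against 18.9% of all IDs) and 7 larger (13.2%, against 22.5%). The median log2 ratio of these 53 genes was -0.45, and that of all IDs with as many sites 0.12. Outside the chromosome 4 group, 45 members had at least 10 sites, of which 12 were smaller, 7 larger and 26 open.

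Among the genes outside this group with a smaller share on day 10 was Zfp704, a zinc finger transcription factor. It held 70 sites on day 0, the most of any member on that day, 11 on day 3 and 21 on day 10, which is 0.165 times (0.0789 to 0.314) and 0.12 times (0.0700 to 0.198) the day 0 share. Zfp808 held 56, 16 and 3 sites, a ratio of 0.0214 (0.00429 to 0.0660) on day 10. Zfp292, the gene with most sites in all and a large zinc finger transcription factor, held 43, 29 and 70, and its day 10 share was 0.652 times that of day 0 (0.440 to 0.976). Zfp961 held 25, 9 and 14 sites, with a ratio of 0.224 (0.108 to 0.448). Zfp64 held 17, 12 and 14 sites and Zfp710 17, 13 and 13, with day 10 ratios of 0.330 and 0.306. Zfp936 held 17 sites on day 0, 1 on day 3 and none on day 10. Zfp944 fell from 8 sites to 4, with 6 on day 3, and had a ratio of 0.20. The remaining 4 genes of this kind with at least 10 sites, Zfp568, Zfp57, Zfp975 and Zfp976, are described below with their roles or neighbours. Genes with fewer sites that were called smaller were Zfp951 with 9 sites and Zfp229 with 8, all on day 0, and Zfp930, Zfp640, Zfp820, Zfp59 and Zfp934.

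The 7 genes with a larger share on day 10 than on day 0 were Zfp609, Zfp462, Zfp608, Zfp516, Zfp521, Zfp423 and Zfp948. Zfp609, which works with the cohesin loader NIPBL and the Integrator complex, held 10 sites on day 0, 23 on day 3 and 76 on day 10, a ratio of 3.04 (1.57 to 6.60). Zfp462, a chromatin regulator that restrains lineage genes in stem cells, held 5, 17 and 76, a ratio of 6.09 (2.50 to 19.3). Zfp608, the paralogue of Zfp609, held no site on day 0, 18 on day 3 and 45 on day 10. Zfp516, known as an activator of the brown fat programme, held 12, 4 and 63 sites, a ratio of 2.10 (1.12 to 4.28). Zfp521, a regulator of neural and haematopoietic progenitors, held 24 sites, all on day 10. Zfp423, its paralogue and a factor of adipocyte commitment and BMP signalling, held 1, 5 and 19, a ratio of 7.61 (1.21 to 316). Zfp948 held 0, 2 and 18. The first 6 of these genes span 95.6 to 300.2 kb and Zfp948 spans 23.5 kb.

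**Figure D3:**
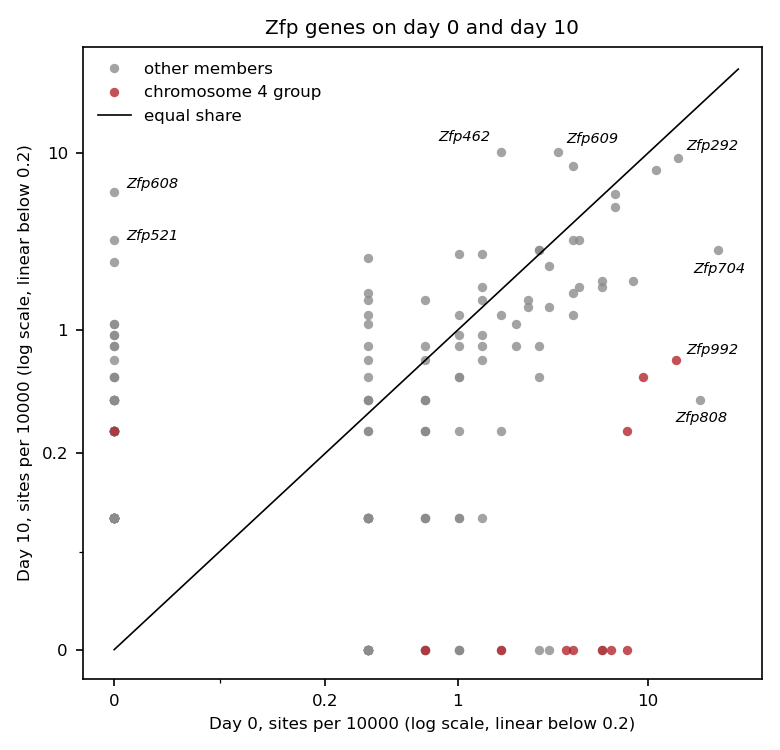
Sites per 10000 on day 0 (horizontal axis) and day 10 (vertical axis), both on a log scale that is linear below 0.2, for the 165 Zfp genes with a site on either day. Points below the line of equal share had a lower value on day 10, called or not, and 9 of the 11 red points of the chromosome 4 group were called smaller. The share called smaller over all gene IDs was 10.5%.

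Between day 0 and day 3, 16 of 144 Zfp genes held a smaller share on day 3 and 6 a larger one, against 4.3% and 3.84% of all IDs, and 122 were open. The members' shares are 11.1% and 4.17%. Among the 42 members with at least 10 sites, 14 were smaller and 5 larger, where 14% and 12% of all IDs were called. The larger calls were those of Zfp609, with a ratio of 2.42 (1.11 to 5.70), Zfp462 with 3.58 (1.27 to 12.4), Zfp638 with 2.00 (1.13 to 3.63), Zfp266 with 3.86 (1.02 to 21.5), Zfp608 and Zfp664. Zfp266 held 3, 11 and 20 sites on the 3 days and Zfp664 0, 7 and 8. The smaller calls included 6 genes of the chromosome 4 group, and elsewhere Zfp704, Zfp808, Zfp961, Zfp936, Zfp951, Zfp229, Zfp654, Zfp655, Zfp975 and Zfp976. Zfp654 held 13 sites on day 0, a single one on day 3 and 24 on day 10, and Zfp655 held 9, 1 and 10. In both, the day 3 count was low between higher neighbours, but the ratio of day 10 to day 3 of Zfp655 was open, at 3.80 (0.541 to 165).

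Between day 3 and day 10, 16 of 159 Zfp genes held a smaller and 6 a larger share on day 10, against 8.58% and 5.62% of all IDs. With at least 10 sites, 8 of 48 were smaller and 6 larger, where 15.5% and 17.6% of all IDs were called. Larger shares were those of Zfp516, with a ratio of 5.99 (2.23 to 22.7), Zfp654, with 9.13 (1.49 to 376), and Zfp521, Zfp395, Zfp975 and Zfp976, which had no site on day 3. Zfp395 held 1, 0 and 12 sites. Outside the chromosome 4 group the smaller shares were those of Zfp638, Zfp808, Zfp91, Zfp710, Zfp106, Zfp110, Zfp7 and Zfp740. Zfp91, which encodes a ubiquitin ligase of the NF-kappaB pathway, held 12, 18 and 24 sites, and its ratio of day 10 to day 3 was 0.507 (0.264 to 0.992). Zfp110 held 3, 8 and 1 sites.

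The chromosome 4 group spans 2.34 Mb (chr4:145510759-147849126, GRCm38.p6) and holds 16 annotated Zfp genes with gaps of at most 500 kb, of which 11 had sites assigned by name. The group was picked after its values were seen. Its members held 182 sites on day 0, 70 on day 3 and 13 on day 10, that is 61.2, 24.8 and 1.75 sites per 10000. The day 3 share was 0.405 times (0.303 to 0.536) and the day 10 share 0.0286 times (0.0149 to 0.0501) that of day 0. Of the 11 genes, 9 held a smaller share on day 10 than on day 0, none a larger one, and 2 were open. The shares over all gene IDs were 10.5% smaller and 7.33% larger in this comparison.

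Along the chromosome, Zfp990 held 28 sites on day 0, 13 on day 3 and 4 on day 10, and Zfp980 held 23, 9 and 0. Zfp987 held 5, 2 and 0 sites and Zfp600 19, 4 and 0. Zfp992 had the most sites of the group, 42, 17 and 5, at 31.4 sites per 10 kb over the 3 days. That density was close to the 30.5 of Zfp207, a gene outside the group. Zfp993 held 2 sites, both on day 0, and its RefSeq span is wide, so its naming is uncertain. Further along, Zfp982 held 11, 3 and 0 sites, Zfp985 17, 6 and 0, and Zfp979 12, 3 and 0. Zfp984 held 23, 13 and 2. Zfp933, at the end of the group and with an unlike promoter, was the only one without a site on day 0 or day 3 and held 2 on day 10. In every member but Zfp933 and Zfp993 the numbers therefore ran down from day 0 to day 3 to day 10.

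**Figure D4:**
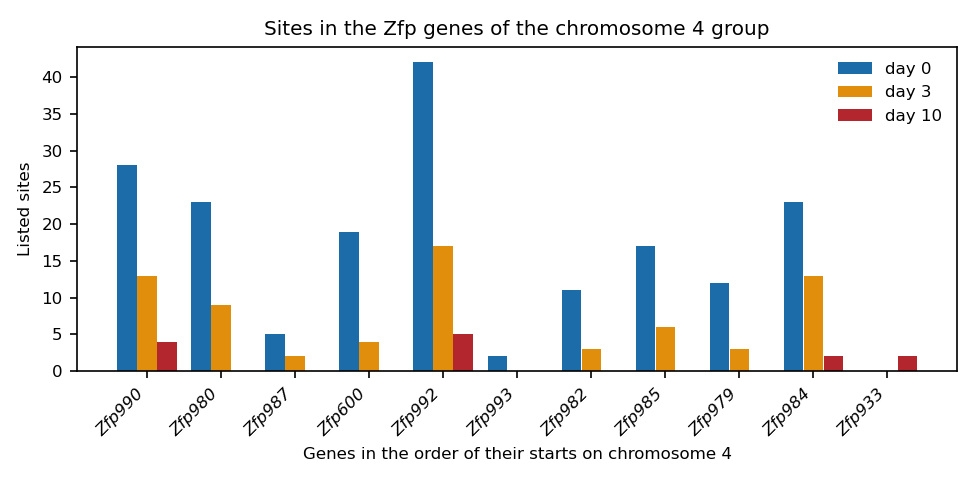
Number of listed sites (vertical axis, not scaled by list length) of the 11 Zfp genes of the chromosome 4 group, 3 bars per gene for day 0, day 3 and day 10, in the order of their starts. The day 10 list is 74287 sites long against 29740 on day 0, and still only Zfp990, Zfp992, Zfp984 and Zfp933 have day 10 bars, of at most 5 sites.

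Other gene IDs lie in the same interval. Its 8 other protein-coding IDs held 67, 30 and 0 sites. Of these, only Rex2, with 12, 4 and 0 sites, and Gm13212, with 17, 5 and 0, were named. The rest have no symbol here, and whether some are Zfp genes was not determined. The 8 non-coding and pseudogene IDs of the interval held 68, 48 and 19 sites. Their day 3 ratio of 0.743 (0.502 to 1.09) was open, and their day 10 ratio was 0.112 (0.0635 to 0.188). That day 10 interval lies above the one of the Zfp genes, but 1 unnamed long non-coding RNA held 16 of the 19 day 10 sites. It held 32 and 26 sites on day 0 and day 3. The ratio without it was not computed, so a higher day 10 ratio is not shown for the other non-coding and pseudogene IDs. Similar copies are known in such clusters, but the identity of the transcribed sequences was not measured here. How reads that match several copies were counted is not given in the sources used here, and the split of sites between single genes is uncertain. The positions of sites in 2 genes were laid over each other at every shift in 55 pairs, and at most 3 sites coincided at any 1 shift. Of the 70 day 3 sites of the group, 51.4% (39.2% to 63.6%) overlapped a day 0 site, and 2 of the 13 day 10 sites did.

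Of the other Zfp groups on chromosomes, with at least 5 annotated genes each, 2 had more than 10 day 0 sites per 10000. On chromosome 17 (chr17:21008941-23599755), 13 Zfp genes with sites held 35, 27 and 46, a day 10 ratio of 0.526 (0.332 to 0.841), with 3 genes smaller, 1 larger (Zfp948), 8 open and Zfp946 with a site on day 3 alone. The shares over all gene IDs were 10.5% smaller and 7.33% larger for day 10 against day 0. On chromosome 7 (chr7:42473386-43618279), 6 genes held 43, 5 and 27 sites, a day 10 ratio of 0.251 (0.149 to 0.416). Of these, 3 were smaller, none larger and 2 open, and Zfp977 had a site on day 3 alone. The adjacent genes Zfp975 and Zfp976 of that group ran in parallel, with 12, 0 and 12 sites and 13, 0 and 13 sites. Their day 10 shares were each 0.400 times the day 0 share, and which of these 2 similar names a read came from may also be uncertain.

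Among regulators of the stem cell state and chromatin, 15 of 17 listed genes had sites, 95 on day 0, 113 on day 3 and 307 on day 10. The day 10 share was 1.29 times that of day 0 (1.02 to 1.65), with 2 genes larger (Zfp609, Zfp462), 2 smaller (Zfp292, Zfp57) and 11 open, where 7.33% of all IDs were larger and 10.5% smaller. The joint ratio rested on Zfp462: without it the ratio was 1.03 (0.802 to 1.33), and without Zfp462 and Zfp609 0.776 (0.588 to 1.03). The median log2 ratio was 0.34, against 0.12 over all IDs. Zfp827, which recruits the NuRD complex at telomeres, held 8, 13 and 21 sites, and Zfp219 9, 6 and 17. Of the 3 partners in one chromatin complex, Zfp532 held 4, 9 and 13 sites, Zfp592 2, 1 and 11, and Zfp687 0, 0 and 2. Zfp451, a SUMO ligase, held 2, 6 and 6. Zfp281, a factor of the exit from pluripotency, held 0, 2 and 2 sites, Zfp143 held 1, 1 and 2, and Zfp217 2, 0 and 0. Zfp296 and Zfp644 had no listed site. The letter-suffixed names Zfp322a and Zfp518a are in this list but do not meet the naming rule of the members.

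All 8 genes of the list of differentiation regulators had sites, 104, 55 and 172 on the 3 days. Their joint day 10 ratio to day 0 was 0.662 (0.516 to 0.853), but 3 genes were larger (Zfp608, Zfp521, Zfp423), 1 smaller (Zfp704) and 4 open, and the median log2 ratio was 0.77. Over all IDs, 7.33% were larger and 10.5% smaller, and the median was 0.12. Zfp704 alone held 70 of the 104 day 0 sites. The median of 0.77 is the value of Zfp503, Zfp536 and Zfp703, open genes with 1 site each, and gives no direction for the list. Without Zfp704 the joint ratio was 1.78 (1.2 to 2.7). Zfp148 (ZBP-89), a factor that binds GC-rich promoters, held 33, 21 and 60 sites and was open in all 3 comparisons. Zfp503, Zfp536 and Zfp703 each held 1 site, on day 10.

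Of proteins tied to RNA, all 10 genes on the list had sites, 54, 77 and 112, with a day 10 ratio to day 0 of 0.830 (0.595 to 1.17) and no gene called larger or smaller of 9 with a site on either day. The median log2 ratio was -0.42, against 0.12 over all IDs. Between day 0 and day 3 their joint share was 1.5 times as large (1.05 to 2.17), with 1 gene larger (Zfp638), none smaller and 8 open, where 3.84% of all IDs were larger and 4.3% smaller. The median log2 ratio of that comparison was 0.07, against 0.04 over all IDs, and without Zfp638 the joint ratio was 1.21 (0.742 to 1.97), which is open. The joint share on day 10 was 0.553 times that of day 3 (0.410 to 0.750), and 0.663 times (0.441 to 1.01) without Zfp638. Zfp638, a nuclear protein that binds nucleic acids and takes part in silencing of unintegrated retroviral DNA, held 20, 38 and 44 sites. Its share was highest on day 3, at 13.4 sites per 10000, against 6.72 on day 0 and 5.92 on day 10. Zfp207 (BuGZ), a spindle protein that also affects splicing in stem cells, held 20, 20 and 37 sites, open in all comparisons. Zfp106, an RNA-binding protein of motor neurons, held 6, 10 and 6 sites, and its day 10 ratio to day 3 was 0.228 (0.0682 to 0.693). Zfp326, part of a complex that links transcription by RNA polymerase II to splicing, held 1, 3 and 8, and Zfp346, which binds double-stranded RNA, 4, 4 and 5. Zfp36 (tristetraprolin), which promotes decay of AU-rich messages, held 2 sites, both on day 10. Zfp622 and Zfp598, factors of ribosome maturation and of ribosome quality control, held 2 sites and 1 site. Zfp36l1 and Zfp36l2 are on the list but are not members by the naming rule.

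Among silencers of retroelements and imprinted regions, 6 of 8 listed genes had sites, 56, 30 and 61 on the 3 days. The joint day 10 share was 0.436 times that of day 0 (0.298 to 0.638), with 3 genes smaller, none larger and 3 open, and a median log2 ratio of -1.13. Over all IDs, 10.5% were smaller and 7.33% larger, and the median was 0.12. Zfp961, described above, is on this list, was called smaller and held 25 of the 56 day 0 sites. The joint ratio without it was not computed. Zfp57, which keeps methylation at imprinted regions, held 8, 3 and 6 sites, a ratio of 0.300 (0.0859 to 0.987). Zfp445, which acts at imprinted regions as well, held 4, 6 and 20, with an open ratio of 2.00 (0.671 to 8.05). Zfp568, which silences a placental transcript of Igf2, held 12, 6 and 9, a ratio of 0.300 (0.112 to 0.776). Zfp809, which recognises the primer binding site of murine leukaemia virus, held 7, 5 and 10 and was open. The smaller share of the list was thus not shown by its imprint factor Zfp445, and Zfp932 held 0, 1 and 2 sites. Zfp708 and Zfp819 had no listed site.

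Genes whose products work with KRAB zinc finger proteins are no members and were counted for comparison. Of 14 such genes, 12 had sites, 126, 88 and 119 on the 3 days, a day 10 ratio of 0.378 (0.292 to 0.490), with 5 smaller, none larger and 7 open, where 10.5% of all IDs were smaller and 7.33% larger. Among those called smaller, Setdb1 held 14, 4 and 7 sites, Smarcad1 27, 9 and 10, Atrx 22, 19 and 26, Morc3 10, 7 and 2, and Uhrf1 4, 0 and 0. Trim28 itself held 3, 4 and 1 and was open.

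SAM68 sites were found in a larger part of the annotated Zfp genes than of other protein-coding genes. Of 366 annotated protein-coding Zfp genes, 174 had a site (47.5%, 42.3% to 52.8%), against 6971 of 21534 others (32.4%). Within classes of gene length the shares were 31.8% against 17.0% under 20 kb, 61.4% against 43.1% from 20 to 50 kb, 83.3% against 56.8% from 50 to 100 kb, and 17 of 20 against 59.1% from 100 kb. The median span was 25.6 kb for Zfp genes with sites and 14.2 kb for those without, and 37.8 kb for other genes with sites. Per 100 kb of gene with sites, the Zfp genes held 10.5 sites on day 0, 7.28 on day 3 and 15.1 on day 10, and other genes 4.93, 4.83 and 12.9. This density varied with gene length. Under 20 kb the Zfp genes were lower on all 3 days, at 12.3, 9.89 and 18.1 against 13.6, 13.4 and 23.9. From 20 to 50 kb they were higher on day 0 (16.0 against 8.76) and day 3 (9.44 against 7.80) and lower on day 10 (15.8 against 17.0). Zfp genes of 50 to 100 kb were higher on all 3 days, at 17.5, 9.38 and 22.1 against 7.16, 6.58 and 17.4. Those of 100 kb or more were also higher on all 3 days, at 4.471, 4.638 and 11.78 against 2.982, 3.196 and 10.14.

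The course from day 0 to day 10 differed with gene length, in the Zfp genes and in other genes alike. Zfp genes of 100 kb or more held 161 and 424 sites on day 0 and day 10, a ratio of shares of 1.05 (0.877 to 1.27), against 1.36 (1.33 to 1.39) in other genes of that length. From 50 to 100 kb the ratio was 0.504 (0.414 to 0.615) against 0.971, from 20 to 50 kb 0.396 (0.342 to 0.459) against 0.776, and under 20 kb 0.587 (0.457 to 0.758) against 0.703. Without the chromosome 4 group, the ratio from 50 to 100 kb was 0.612 (0.497 to 0.757) and from 20 to 50 kb 0.634 (0.535 to 0.753). In each length class the ratio of the Zfp genes was below that of other genes. Under 20 kb the intervals of both overlapped, 0.672 to 0.736 being that of other genes. Without the chromosome 4 group they also overlapped from 20 to 50 kb, where that of other genes was 0.75 to 0.80.

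Along the genes, the pooled sites of the Zfp transcripts held a larger part in the final 20% of the span than those of other genes on day 0 and day 3, but this was not seen in each gene length or in the mean over genes. Each RefSeq span was cut into 5 equal bins, and 34 of the 2575 sites outside the span were left out. On day 0, 28.4% of the sites lay in the final 20% of the span (25.3% to 31.6%), against 20.8% in other protein-coding genes. On day 3 it was 27.2% (23.5% to 31.1%) against 21.7%, and on day 10 20.5% (18.3% to 23.0%) against 19.3%. The excess over other genes was thus seen on day 0 and day 3 and was within the counting error on day 10. Averaged over genes instead of sites, the values over all days were 28.9% and 29.2%, with no excess in the Zfp genes, and on day 3 they were 26.1% and 29.2%. The share within 1 kb of the end was 5.16% in Zfp genes and 5.21% in others over all days, and 5.33% and 6.36% on day 3. In genes under 20 kb that share was smaller in Zfp genes, 13.1% (9.70% to 17.1%) against 26.6%. For the final 20%, Zfp genes under 20 kb stood at 28.5% (23.8% to 33.6%), below the 35.0% of other genes, and those from 20 to 50 kb at 25.0% against 24.4%. From 50 to 100 kb the values were 25.7% (22.0% to 29.7%) and 20.1%. In genes of 100 kb or more, 21.2% of Zfp sites lay in the final 20% (18.3% to 24.3%), against 15.5%.

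**Figure D5:**
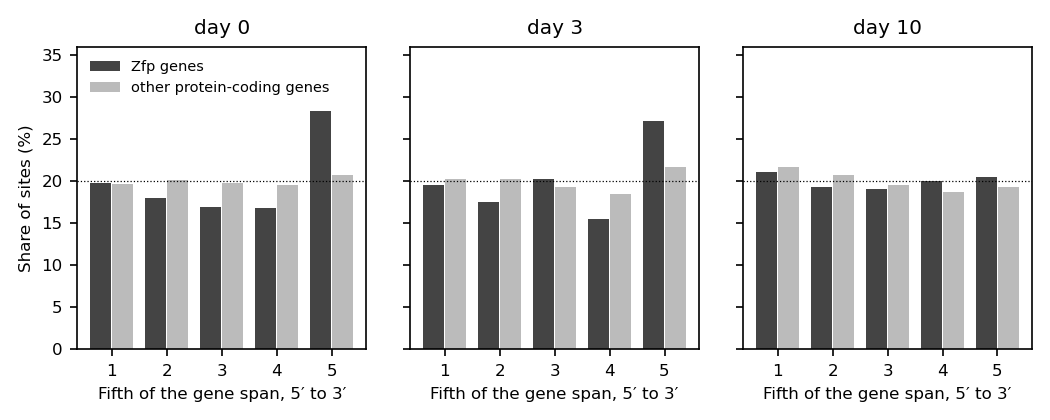
Share of sites in percent (vertical axis) in 5 equal bins of the RefSeq gene span from 5′ to 3′ (horizontal axis), in 1 panel per day, for Zfp genes (dark bars) and other named protein-coding genes (light bars). A dotted line marks 20%, an even spread, and the last bin of the Zfp genes stands at 28.4% on day 0, 27.2% on day 3 and 20.5% on day 10.

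Single genes differed widely in this respect. Among the 63 members with at least 10 sites, the median share in the final 20% was 19.2%, 8 genes had more than 50% there and 9 had none. All 18 sites of Zfp936 lay in the final 20% of its 77.9 kb span, as did 14 of 16 in Zfp760 and 23 of 30 (76.7%) in the imprint factor Zfp445. Next came Zfp979 with 73.3%, Zfp982 with 64.3%, Zfp664 with 9 of 15 sites, Zfp930 with 54.5%, Zfp984 with 52.6%, and Zfp386 and Zfp944 with 50.0% each. The tabulated promoter of Zfp982 (chr4:147492267-147492416) lies inside its RefSeq span (chr4:147443114-147516064), so its value depends on the start used. In the chromosome 4 group as a whole, 34.9% of sites (29.1% to 41.1%) lay in the final 20%, against 23.3% in the other members. Zfp638 had 45.4% of its sites there and none in the first 20% of its span. The opposite pattern was seen in Zfp64, with 76.7% of its sites in the first 20% and none in the last, and in Zfp512, with 68.4% in the first 20%. Zfp462 had 39.8% of its sites in the first 20% and 8.16% in the last.

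Sites that recurred at the same place on several days were a minority. An overlap of at least 1 nt on the same strand was found on day 10 for 16.6% of the 823 day 0 sites of Zfp genes (14.2% to 19.4%), against 24.3% of day 0 sites in other genes. On day 3 it was found for 16.8% of day 0 sites, against 17.4% in other genes. Conversely, 24.0% of day 3 sites overlapped a day 0 site (20.5% to 27.7%), against 18.1% in other genes. Of the day 10 sites, 11.6% overlapped a day 0 site (9.84% to 13.6%) and 12.2% a day 3 site, against 9.65% and 9.87% in other genes. In the chromosome 4 group, 36 of 70 day 3 sites overlapped a day 0 site, and 2 of 182 day 0 sites a day 10 site. Over all members, 137 of 572 day 3 sites overlapped a day 0 site, and 137 of 823 day 0 sites a day 10 site. These counts include the group, and the member shares were not computed without it. The differences from other genes are therefore not shown for the members outside the group. The searched lists differ in length, and what these shares depend on was not tested.

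Grouped by overlap, the 2575 sites formed 2221 positions, of which 285 were seen on at least 2 days and 65 on all 3 days. The 65 positions lay in 34 genes. Zfp638 had 7 of them, Zfp292, Zfp148, Zfp609 and Zfp568 had 4 each, and Zfp207, Zfp219, Zfp64 and Zfp710 had 3 each. Those of Zfp207 lay close together in the middle of the gene (chr11:80397515-80397519, chr11:80398481-80398488 and chr11:80399394-80399400, plus strand), at 56.3%, 60.1% and 63.8% of its span. In Zfp57, 2 positions recurred on all 3 days, at 29.0% and 96.0% of its span. Of 118 Zfp genes with sites on at least 2 days, 79 had a recurrent position, which was not set against other genes. Whether these positions are exonic or intronic was not determined, since the gene table holds spans only.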

How the data were processed

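The authors deposited 1 list of SAM68 sites per day. Per the file headers, the sites carry a gene assignment and were cleared of overlapping genes. An entry names its strand, its Ensembl gene and the class of that gene beside a position of 5 nt, and the deposited score of every site is 0, switched off for display per the file headers, and was not used. Per the submitters' processing notes, the builds were GRCh38.p14 and GRCm38.p5 and the tools STAR 2.7.11a, SAMtools 1.22.1, UMI-tools 1.1.6, FastQC 0.12.1, bedtools 2.31.1 and MultiQC 1.31, with no role stated. The site caller and the pooling of libraries are not named in these sources. Without counts in the lists, depth is unknown and a gene without sites has no floor.

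Symbols came from the RefSeq gene table (GRCm38.p6), by position: the gene had to match the ID in class, and in strand where known, and to span at least 80% of its sites. This named 7497 of 7949 IDs (94.3%). Another 42 IDs had several candidates and 18 a shared symbol, and 5 unnamed IDs had a Zfp candidate. The strand was known for 144 members. Ratios of shares have exact conditional binomial 95% intervals. Log2 ratios used a pseudocount of 2 sites per pair of days, split by list length. Percentages have exact binomial intervals. Sites merged into positions overlapped by at least 1 nt. Promoters were aligned in Biopython 1.88. Python 3.11.15, NumPy 2.4.6, pandas 2.3.3, SciPy 1.17.1 and matplotlib 3.10.9 were used, and the calls were tested on simulated data. Genes are named if they held at least 20 sites, were called with at least 10, were among the 10 with most sites near the end or stand on a role list. Others named were chosen after their values were seen. Members and lists were chosen with earlier results of these data known. Protein features were planned but not analysed, as no protein table was used here.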

Additional observations from a re-analysis of the deposited data

How the results depend on the processing

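The lists hold no values per library, so neither libraries nor batches could be left out. No paired analysis was possible because each day has 1 list with no values per replicate. With at most 10 sites per gene and day, the day 3 ratio to day 0 was 0.931 and open. With 99% intervals, 1 member was larger and 10 smaller on day 3 against day 0, 18 were smaller on day 10 against day 0, and 3 were larger and 9 smaller on day 10 against day 3. With at least 10 sites over both days, 8 were smaller on day 10 against day 3. Requiring identical coordinates, 6.68% of day 0 sites recurred on day 3 and 7.65% on day 10, 9.62% of day 3 sites on day 0 and 11.5% on day 10, while day 10 sites recurred to 5.34% (day 0) and 5.59% (day 3). With centres within 20 nt, 19.6% of day 0 sites recurred on day 3 and 20.2% on day 10, while day 10 sites recurred to 14.7% (day 0) and 14.6% (day 3). The share in the final 20% of the span was 28.9% as a mean over genes, below the 29.2% of other genes, and 5.16% of sites lay within 1 kb of the end, against 5.21%, so the excess over other genes in the final 20% (24.5% against 20.1%) was absent in both. No alternative turned a ratio of shares, and 49 of the alternative values kept their call or size. With the chromosome 4 group cut at gaps of 200 kb, its day 10 ratio was 0.0337 over 7 genes with sites. Leaving out the whole group, naming IDs at 50% of their sites and leaving single genes out of the role lists were chosen after seeing the data.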
